A study of Mus musculus with 11 samples.

Results

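The chemokine ligands and receptors on the panel were 51 of its 754 genes: every gene whose symbol begins with Ccl, Cxcl, Cx3cl, Xcl, Ccr, Cxcr, Cx3cr, Xcr or Ackr, together with Pf4 and Ppbp, and with Cxcl13 set aside. Described here are 50 of the 51, 33 ligands and 17 receptors, and the values analysed held no gene of the Xcl or Ackr families and no Ppbp. The Nanostring panel, which reads each transcript through barcoded probes without amplification, was run on CD11b+F4/80+ peritoneal macrophages sorted from 11 female C57BL/6 mice aged 6 to 8 weeks. PBS or IL-4c, which is IL-4 bound to the anti-IL-4 antibody 11B11 to lengthen its action, was injected intraperitoneally on days 0 and 2, and cells were taken on day 4. Per the study's methods the panel was run once, so all values come from a single experiment.

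The groups were PBS-treated Rα+/+ (wild-type; mice 1 and 2), PBS-treated RαTd/Td (mice 3 and 4), IL-4c-treated Rα+/+ (mice 5, 6 and 7) and IL-4c-treated RαTd/Td (mice 9, 10, 11 and 12). RαTd/Td mice carry on both alleles a TdTomato reporter in place of several exons of Retnla, the gene for RELMα. The replacement was made active with a germline Cre deleter, so it is present in every cell of the animal and is not limited to macrophages. Retnla was at the floor of the assay, listed as 30 normalized counts, in all 6 RαTd/Td mice. The Rα+/+ mice had 4631 and 4141 normalized counts after PBS and 115675, 147349 and 171588 after IL-4c, which is at least 77.9-fold and at least 4429-fold above the RαTd/Td mice.

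Chemokines are small secreted proteins that direct the movement of leukocytes by binding G protein-coupled receptors. CC chemokines act mainly on monocytes, macrophages, eosinophils and lymphocytes, and those CXC chemokines that bind Cxcr2 act mainly on neutrophils. Resident macrophages of the peritoneal cavity are a source of such ligands during inflammation, and IL-4 is known to drive these cells to divide and to take on an alternatively activated state.

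Values are normalized counts. Low values had been replaced by 30. Depth ranged from 268858 to 574505 counts per mouse. The lowest value listed above that floor ranged from 30.5 normalized counts in mouse 9 to 56.3 in mouse 4. A gene at the floor therefore has a limit and no level, and a fold against a group at the floor in every mouse is given as "at least", against the geometric mean of that group's lowest values above the floor. The geometric mean of the positive control probes was 853 to 1021 counts in PBS lanes and 301 to 623 in IL-4c lanes, and the median tested gene was at 169 to 201 and at 142 to 188 normalized counts, respectively, a difference between treatments whose part in the results was not tested. All 7 large peritoneal macrophage markers on the panel, Gata6 and Timd4 among them, were above the floor in every mouse. All 5 eosinophil markers and both T or NK cell markers were at the floor in every mouse, as were the neutrophil genes Ly6g, Mpo, Elane, Camp and Mmp8. The B cell marker Ms4a1 was at 105 to 242 normalized counts after PBS and at the floor after IL-4c, except for 63.1 in mouse 12. Fcer2a, also on the B cell list, was at the floor in every mouse. The granulocyte growth factor receptor Csf3r, also on the neutrophil list, was at 251 to 555 normalized counts after PBS and at 30 to 115 after IL-4c. S100a8 of the same list was at 70.8, 82.5 and 74.8 in 3 of the 4 PBS-treated mice and at the floor in the other, and after IL-4c it was above the floor only in mouse 11 (35.6) and mouse 12 (47.0). The macrophage marker Timd4 was at 2567 to 4623 and 1044 to 1646, and Csf1r, Selp and, within each genotype, Mertk were likewise lower after IL-4c. Adgre1 went the other way, at 5897 to 7358 after PBS and 7904 to 10617 after IL-4c. Over all mice Gata6 (503 to 712 and 536 to 654) and Itgam overlapped between treatments. The part of all these markers in the chemokine differences between treatments was not tested. The study removed an IL-4c-treated Rα+/+ sample that grouped with the PBS-treated samples in its principal component analysis of this panel. It also reported less RELMα and lower peritoneal cell numbers in that mouse, and gave ineffective IL-4c delivery as the likely reason. That sample was not analysed here, so the comparison of IL-4c with PBS in Rα+/+ mice follows a removal made partly on expression.

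Of the 50 genes, 20 were above the floor in 1 mouse or more (14 ligands and 6 receptors), and 6 were above it in all 11 mice: Ccl6, Ccl9, Ccl24, Pf4, Ccr1 and Ccr2. The other 30 were not detected, which limits them to below 30.5 to 56.3 normalized counts depending on the mouse, and does not show that they were absent. Ccl17 and Ccl22, the ligands of Ccr4 that IL-4 is known to induce in many macrophages, were not detected in any of the 7 IL-4c-treated mice, and neither was Ccr4. The interferon-inducible Cxcr3 ligands Cxcl9, Cxcl10 and Cxcl11 were not detected, nor was Ccl4, nor the eotaxins Ccl11 and Ccl26. The other undetected ligands were Ccl1, Ccl12, Ccl19, Ccl20, Ccl21a, Ccl25, Ccl27a, Ccl28, Cx3cl1, Cxcl3 and Cxcl5. Undetected receptors were Ccr3, Ccr4, Ccr7, Ccr8, Ccr9, Cx3cr1, Cxcr1, Cxcr2, Cxcr3, Cxcr6 and Xcr1. Among the detected ligands, Ccl24, Cxcl1, Cxcl2 and Cxcl16 thus had their known receptors, Ccr3, Cxcr2 and Cxcr6, at the floor in the same cells, while Ccl2, Ccl3 and Cxcl12 were detected together with Ccr2, Ccr1 and Cxcr4.

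**Figure D1:**
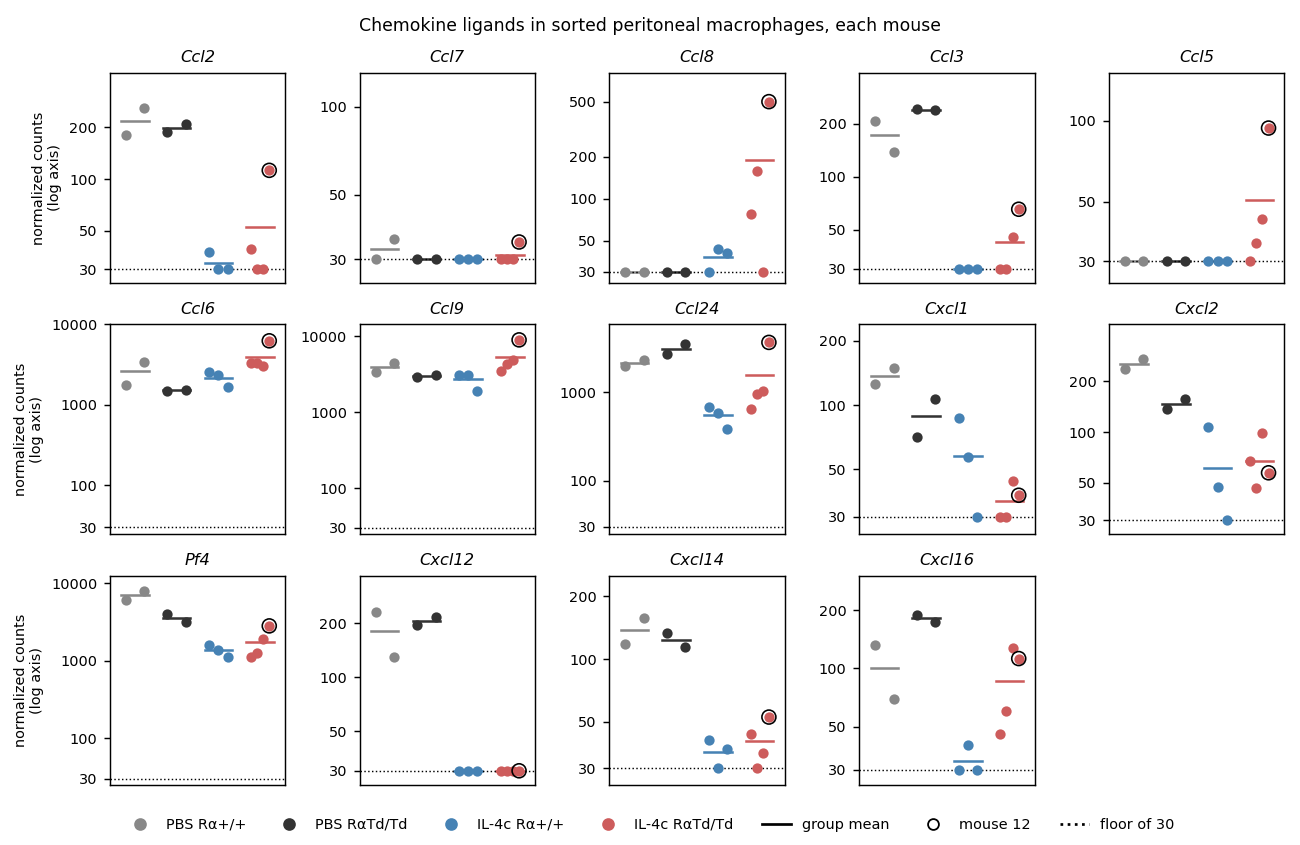
Normalized counts of the 14 detected chemokine ligands in each of the 11 mice, on a log axis that differs between panels. Points are mice, bars are arithmetic group means, the dotted line is the floor of 30 and the ring marks mouse 12. Ccl2, Ccl3, Cxcl12 and Cxcl14 lie higher in every PBS-treated mouse than in any IL-4c-treated mouse, and mouse 12 lies above the 3 other mice of its group for Ccl2, Ccl6, Ccl8, Ccl9 and Ccl24.

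Ccl2, the main attractant of monocytes, was at 180.1 and 258 normalized counts in PBS-treated Rα+/+ mice and at 187 and 208 in PBS-treated RαTd/Td mice. After IL-4c it was at 37.8, 30 and 30 in Rα+/+ mice and at 39.0, 30, 30 and 112 in RαTd/Td mice, the last in mouse 12. The IL-4c-treated mice lay below the PBS-treated mice in each genotype, without overlap. Ccl2 fell by 2.70 on the log2 scale in Rα+/+ mice (SE 0.49, adjusted p = 0.00153 from limma) and fell by 2.12 in RαTd/Td mice (SE 0.46, adjusted p = 0.00389), where without mouse 12 the log2 fold change was -2.55. Its relatives were near the floor: Ccl7 was above it only in mouse 2 (35.2) and mouse 12 (34.4). Ccl8, also an attractant of monocytes, was not above the floor in any of the 4 PBS-treated mice and was at 30, 43.7 and 40.6 normalized counts in IL-4c-treated Rα+/+ mice and at 78.1, 159, 30 and 499 in IL-4c-treated RαTd/Td mice. Ccl8 was not called in either genotype (adjusted p = 0.823 and 0.0783), and the groups overlapped through mice at the floor. With mouse 11 entered at 30, the geometric mean after IL-4c in RαTd/Td mice was 2.08 times the limit of the PBS-treated mice. Since that 30 stands for any value below the limit of mouse 11, the ratio is not a lower bound. Leaving out mouse 11, which was at the floor, gave a call (adjusted p = 0.0083 from limma), and leaving out mouse 12, the highest, did not (adjusted p = 0.0807).

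Ccl3, a ligand of Ccr1, was at 209 and 139 normalized counts in PBS-treated Rα+/+ mice and at 243 and 240.4 in PBS-treated RαTd/Td mice. IL-4c left it at the floor in every Rα+/+ mouse and at 30, 30, 45.3 and 65.4 in RαTd/Td mice. In neither genotype did PBS and IL-4c overlap. Ccl3 fell at least 4.84-fold in Rα+/+ mice (adjusted p = 0.000176 from limma) and in RαTd/Td mice it fell by 2.55 on the log2 scale (SE 0.29, adjusted p = 0.000135). Ccl5, which also binds Ccr1, was detected only in IL-4c-treated RαTd/Td mice, at 35.1 in mouse 10, 43.1 in mouse 11 and 94.1 in mouse 12, and it was not called in any comparison.

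Ccl6 and Ccl9, myeloid ligands of Ccr1 that lie beside each other on chromosome 11, kept levels well above the floor in every mouse. Ccl6 was at 1761 and 3447 normalized counts in PBS-treated Rα+/+ mice, at 1495 and 1539.9 in PBS-treated RαTd/Td mice, and at 2536, 2331 and 1679.8 in IL-4c-treated Rα+/+ mice. In IL-4c-treated RαTd/Td mice it was at 3316, 3308, 3083 and 6261, above both PBS-treated RαTd/Td mice and above all 3 IL-4c-treated Rα+/+ mice. Ccl6 rose with IL-4c in RαTd/Td mice (log2 fold change 1.33, SE 0.34, adjusted p = 0.00879 from limma). In Rα+/+ mice the log2 fold change was -0.20 (SE 0.36, adjusted p = 0.694). The difference between these responses was 1.53 (95% interval 0.42 to 2.63), which did not pass adjustment (adjusted p = 0.146). Leaving out mouse 3 ended the call of the rise (1.31, adjusted p = 0.0538), and without mouse 12 it was 1.09 and still called.

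Ccl9 was at 3394 and 4431 normalized counts in PBS-treated Rα+/+ mice and at 2924 and 3082 in PBS-treated RαTd/Td mice. With IL-4c it stood at 3099, 3116 and 1908 in Rα+/+ mice and at 3452, 4363, 4845 and 8989 in RαTd/Td mice. The groups did not overlap in either genotype, with IL-4c-treated mice lower in Rα+/+ and higher in RαTd/Td. Neither difference was called (log2 fold changes -0.55 and 0.75, adjusted p = 0.247 and 0.0962 from limma), and the difference between the responses was 1.31 (adjusted p = 0.227). In RαTd/Td mice the log2 fold change was 0.94 and called without mouse 9 (adjusted p = 0.0439), and 0.48 and not called without mouse 12 (adjusted p = 0.125).

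Ccl24, an eotaxin often counted among the genes of alternatively activated macrophages, was at 1968 and 2341 normalized counts in PBS-treated Rα+/+ mice and at 2706 and 3502 in PBS-treated RαTd/Td mice. Its levels after IL-4c were 688, 587 and 387 in Rα+/+ mice and 657, 958, 1042 and 3689 in RαTd/Td mice. Every IL-4c-treated mouse except mouse 12 lay below all 4 PBS-treated mice, and mouse 12 lay above all of them. Ccl24 fell in Rα+/+ mice (log2 fold change -1.99, SE 0.60, adjusted p = 0.0205 from limma). It was not called in RαTd/Td mice with mouse 12 (-1.30, SE 0.57, adjusted p = 0.0795) and was called lower without it (-1.82, adjusted p = 0.00063). The fall in Rα+/+ mice was not called without mouse 1 (-2.12), mouse 2 (-1.87) or mouse 7 (-1.75).

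The neutrophil attractants Cxcl1 and Cxcl2 and the platelet factor Pf4 belong to a chemokine gene cluster on chromosome 5. In the RefSeq annotation of GRCm38.p6, Cxcl1 and Cxcl2 are neighbours, and Pf4 lies beside the undetected Cxcl3. The bases before the start sites of Cxcl1 and Cxcl2, from RefSeq and build GRCm38.p6, are shown because both genes were called lower after IL-4c in both genotypes and hold the same run of letters. They are on the plus strand at chr5:90890995-90891244 and chr5:90903649-90903898, with the matches to the NF-kB consensus, which overlap each other in both promoters, in capitals.

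Cxcl1: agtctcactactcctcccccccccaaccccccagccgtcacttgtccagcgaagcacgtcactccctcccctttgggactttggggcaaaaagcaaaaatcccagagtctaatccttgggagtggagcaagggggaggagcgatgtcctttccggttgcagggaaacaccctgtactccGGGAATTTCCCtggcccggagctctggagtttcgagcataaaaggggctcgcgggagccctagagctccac

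Cxcl2: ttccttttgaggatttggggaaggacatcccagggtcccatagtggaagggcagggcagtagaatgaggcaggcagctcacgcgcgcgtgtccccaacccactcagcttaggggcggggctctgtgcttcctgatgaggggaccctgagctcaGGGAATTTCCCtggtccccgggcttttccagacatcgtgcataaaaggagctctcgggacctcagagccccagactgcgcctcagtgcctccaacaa

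The run in capitals, GGGAATTTCCC, begins 71 bases before the start of Cxcl1 and 97 bases before that of Cxcl2. The NF-kB consensus, searched on both strands, was in 4.51% of the 32851 promoter windows of 300 bases in the table (250 before the start site and 50 after it). Windows were held for 14 of the 20 detected genes, 17 windows in all, and the consensus was found for Cxcl1, Cxcl2, Ccl9, Ccr6 and Ccrl2. The STAT6 motif, TTC and GAA parted by 4 bases of any kind, in 6.95% of all windows, was found in 0 of the 17. The shorter STAT motif TTCNNNGAA (8.3% of all windows) was found for Ccr6 and Cxcl14, and the AP-1 motif TGANTCA (7.81% of all windows) for Ccl9. These matches describe letters in the windows only.

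Cxcl1 was at 125 and 149 normalized counts in PBS-treated Rα+/+ mice and at 71.0 and 107 in PBS-treated RαTd/Td mice. After IL-4c it was at 87.0, 57.0 and 30 in Rα+/+ mice and at 30, 30, 44.2 and 37.9 in RαTd/Td mice. No mouse overlapped between treatments within a genotype. Cxcl1 fell by 1.35 on the log2 scale in Rα+/+ mice (SE 0.38, adjusted p = 0.0158 from limma) and fell by 1.29 in RαTd/Td mice (SE 0.36, adjusted p = 0.0136). Leaving out mouse 1 (-1.47) or mouse 2 (-1.22) ended the call in Rα+/+ mice, and leaving out mouse 4 (-0.998) or quantile normalization (-1.07) ended it in RαTd/Td mice.

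Cxcl2 was at 235 and 271 normalized counts in PBS-treated Rα+/+ mice and at 136 and 158 in PBS-treated RαTd/Td mice. With IL-4c it stood at 108, 47.3 and 30 in Rα+/+ mice and at 67.6, 46.5, 99.2 and 57.4 in RαTd/Td mice. Again the treatments did not overlap. In Rα+/+ mice Cxcl2 fell by 2.21 on the log2 scale (SE 0.46, adjusted p = 0.00378 from limma). The call in RαTd/Td mice was at the threshold (log2 fold change -1.16, SE 0.44, adjusted p = 0.0496) and was lost, with values from -1.265 to -1.002, on leaving out any of mice 1, 2, 3, 4, 6, 9, 10 and 12. It was also lost after centring each mouse on its median gene and after quantile normalization (both -0.90).

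Pf4, made in platelets and also in macrophages, was at 6157 and 7919 normalized counts in PBS-treated Rα+/+ mice and at 4089 and 3162 in PBS-treated RαTd/Td mice. Its levels after IL-4c were 1620.2, 1384 and 1129 in Rα+/+ mice and 1118, 1275, 1898 and 2834 in RαTd/Td mice. All 7 IL-4c-treated mice were below all 4 PBS-treated mice, and after PBS both RαTd/Td mice were below both Rα+/+ mice. With IL-4c Pf4 fell by 2.36 on the log2 scale in Rα+/+ mice (SE 0.36, adjusted p = 0.000578 from limma) and fell by 1.11 in RαTd/Td mice (SE 0.34, adjusted p = 0.0207), the latter lost without mouse 3 (-0.93) or mouse 4 (-1.30). The genotype difference after PBS was -0.96 and was not called (adjusted p = 0.173). No platelet marker of the list used was among the genes analysed.

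Cxcl12, the ligand of Cxcr4 and a retention signal for many leukocytes, was at 232 and 130.5 normalized counts in PBS-treated Rα+/+ mice and at 196 and 216 in PBS-treated RαTd/Td mice. None of the 7 IL-4c-treated mice was above the floor. The fall was at least 4.94-fold in Rα+/+ mice (adjusted p = 8.61e-06 from limma) and at least 6.38-fold in RαTd/Td mice (adjusted p = 3.23e-06), and mouse 12 was at the floor with the rest.

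Cxcl14, a chemokine made by many tissues at rest, was at 117 and 157 normalized counts in PBS-treated Rα+/+ mice and at 133 and 115 in PBS-treated RαTd/Td mice. After IL-4c it was at 41.2, 30 and 37.1 in Rα+/+ mice and at 43.8, 30, 35.6 and 52.8 in RαTd/Td mice. The treatments were far apart in both genotypes. Cxcl14 fell in Rα+/+ mice (adjusted p = 0.000178 from limma) and in RαTd/Td mice (adjusted p = 0.000358), from 137 ± 27.8 to 36.1 ± 5.68 (SD, n = 2 and 3) and from 124 ± 12.8 to 40.5 ± 9.94 (SD, n = 2 and 4).

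Cxcl16, a membrane-bound chemokine that also takes up oxidized lipoprotein, was at 132 and 69.7 normalized counts in PBS-treated Rα+/+ mice and at 189 and 175 in PBS-treated RαTd/Td mice. With IL-4c it stood at 30, 40.04 and 30 in Rα+/+ mice and at 45.7, 59.9, 128 and 112 in RαTd/Td mice. Within each treatment every RαTd/Td mouse was above every Rα+/+ mouse. With IL-4c Cxcl16 fell by 1.51 on the log2 scale in Rα+/+ mice (SE 0.43, adjusted p = 0.0163 from limma) and fell by 1.18 in RαTd/Td mice (SE 0.41, adjusted p = 0.034). Averaged over treatments it was higher in RαTd/Td mice (log2 fold change 1.08, SE 0.30, adjusted p = 0.0438). That average was not called on leaving out any of mice 2, 3, 4, 5, 6, 7, 11 and 12, with values between 0.849 and 1.144. The fall in Rα+/+ mice was not called without mouse 1 (-1.06), and the fall in RαTd/Td mice without mouse 3 (-1.13), 4 (-1.24), 9 (-0.92) or 10 (-1.05). A single floor ended the call in Rα+/+ mice (-0.76) and that of the average (0.74), and centring and quantile normalization ended those in RαTd/Td mice (-0.93 and -0.87) and of the average (0.91 and 1.04).

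**Figure D2:**
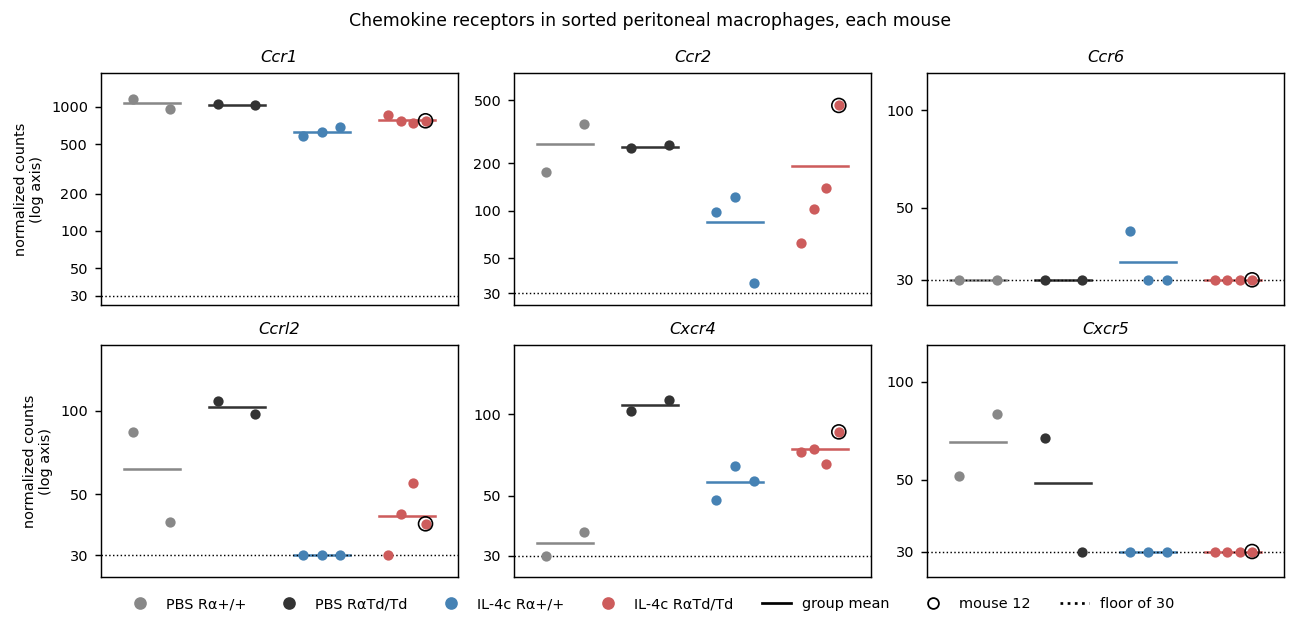
Normalized counts of the 6 detected chemokine receptors in each of the 11 mice, on a log axis that differs between panels. Points are mice, bars are arithmetic group means, the dotted line is the floor of 30 and the ring marks mouse 12. Cxcr4 is at 103 and 113 in PBS-treated RαTd/Td mice, above every other mouse, and Ccr1 is lower in every IL-4c-treated mouse than in any PBS-treated mouse.

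Among receptors, Ccr1, which binds Ccl3, Ccl6 and Ccl9, was at 1167 and 964 normalized counts in PBS-treated Rα+/+ mice and at 1046 and 1042 in PBS-treated RαTd/Td mice. Its levels after IL-4c were 578, 622 and 686 in Rα+/+ mice and 864, 776, 739 and 772 in RαTd/Td mice. The replicates were close, and all 7 IL-4c-treated mice were below all PBS-treated mice. Ccr1 fell by 0.76 on the log2 scale in Rα+/+ mice (SE 0.13, adjusted p = 0.000981 from limma) and fell by 0.41 in RαTd/Td mice (SE 0.12, adjusted p = 0.0164). The fall in RαTd/Td mice was not called without mouse 3 or mouse 4 (both -0.41) or after centring each mouse on its median gene (-0.15) or quantile normalization (-0.27).

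Ccr2, the receptor of Ccl2 and a monocyte marker, was at 175 and 353 normalized counts in PBS-treated Rα+/+ mice and at 248.5 and 259 in PBS-treated RαTd/Td mice. After IL-4c it was at 98.5, 121 and 34.8 in Rα+/+ mice and at 61.9, 102, 139 and 464 in RαTd/Td mice. Mouse 12 was the highest of all 11 mice, while the other 6 IL-4c-treated mice were below all PBS-treated mice. Ccr2 was not called in Rα+/+ (log2 fold change -1.72, SE 0.78, adjusted p = 0.0965 from limma) or RαTd/Td mice (-0.83, SE 0.74, adjusted p = 0.385). With mouse 12 left out, which lowered the estimated spread, the same difference in Rα+/+ mice was called (adjusted p = 0.0254), and that in RαTd/Td mice was -1.39 (adjusted p = 0.0535).

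Cxcr4, the receptor of Cxcl12, was at 30 and 36.8 normalized counts in PBS-treated Rα+/+ mice and at 103 and 113 in PBS-treated RαTd/Td mice. Its levels after IL-4c were 48.1, 64.3 and 56.8 in Rα+/+ mice and 72.4, 74.4, 65.8 and 86.1 in RαTd/Td mice. RαTd/Td mice were higher than Rα+/+ mice in both treatments without overlap, and IL-4c-treated mice of the genotypes lay closer together than PBS-treated mice did. The value of 30 in mouse 1 is a limit, since the lowest value listed above the floor in that mouse was 48.2. Cxcr4 was higher in RαTd/Td than in Rα+/+ mice after PBS (log2 fold change 1.67, SE 0.18, adjusted p = 0.000579 from limma) and on average over treatments (1.03, SE 0.11, adjusted p = 0.000491), and both calls held with each mouse left out. With a single floor of 56.3 for all mice, above both PBS-treated Rα+/+ values, the difference after PBS was 0.92 and called (adjusted p = 0.0028), and by the methods' t-test with adjustment it was not called (adjusted p = 0.315). With IL-4c it rose by 0.74 in Rα+/+ mice (SE 0.16, adjusted p = 0.0043) and fell by 0.53 in RαTd/Td mice (SE 0.15, adjusted p = 0.0157). The difference between the responses was -1.27 (SE 0.22, adjusted p = 0.0193). With that single floor the rise in Rα+/+ mice was 0.07 and the difference between the responses -0.60 (adjusted p = 0.0983), neither called. The difference was also not called without mouse 4 (-1.20), 6 (-1.17) or 7 (-1.255). The fall in RαTd/Td mice was not called without mouse 4 (-0.46), after centring on the median gene (-0.27) or after quantile normalization (-0.20).

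Cxcr5, a receptor best known from B cells, was at 51.5 and 79.5 normalized counts in PBS-treated Rα+/+ mice, at 67.3 and 30 in PBS-treated RαTd/Td mice and above the floor in none of the 7 IL-4c-treated mice. It fell at least 1.82-fold in Rα+/+ mice (adjusted p = 0.0123 from limma), a call lost without mouse 2, after centring and with a single floor. The B cell marker Ms4a1 was likewise higher in every PBS-treated mouse (105 to 242 normalized counts) than in any IL-4c-treated mouse. Fcer2a of the same list was at the floor in every mouse. The part of these markers in the Cxcr5 result was not tested. In sorted bulk samples such as these, fewer cells of a type and less RNA per cell cannot be told apart.

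Ccrl2, which binds chemerin and does not signal as a chemokine receptor does, was at 83.6 and 39.8 normalized counts in PBS-treated Rα+/+ mice and at 108 and 97.7 in PBS-treated RαTd/Td mice. IL-4c left it at the floor in every Rα+/+ mouse and at 30, 42.4, 55.0 and 39.0 in RαTd/Td mice. Treatments did not overlap within a genotype. Ccrl2 fell at least 1.64-fold in Rα+/+ mice (adjusted p = 0.0287 from limma), a call lost without mouse 1, 5, 6 or 7, after centring or quantile normalization and with a single floor, and it fell by 1.32 on the log2 scale in RαTd/Td mice (SE 0.28, adjusted p = 0.00372). Ccr6 was above the floor only in mouse 5, at 42.4 normalized counts.

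IL-4c was called to change 13 of the 20 detected genes in Rα+/+ mice, where 46.3% of all 445 tested genes were called. Of the 13, 12 were lower after IL-4c, where 32.4% of tested genes were called lower, and Cxcr4 was higher, where 13.9% were called higher. In RαTd/Td mice 12 of the 20 were called, where 51.9% of tested genes were called. They were 11 lower (background 36.6%) and 1 higher (background 15.3%), the latter Ccl6. The median log2 fold change of the 20 was -1.21 in Rα+/+ and -0.97 in RαTd/Td mice, against -0.18 and -0.23 over all tested genes. With genes at the floor in a whole group set to their limits the medians of the 20 were -1.11 and -0.97. In both genotypes 10 were called lower (Ccl2, Ccl3, Cxcl1, Cxcl2, Cxcl12, Cxcl14, Cxcl16, Pf4, Ccr1 and Ccrl2), and Cxcr4 was called in opposite directions. The share of all tested genes called lower in both genotypes was not counted. Ccl24 and Cxcr5 were called in Rα+/+ mice and not in RαTd/Td mice, and Ccl6 the other way round. Of these 3, none was called in the test of the difference between the responses (limma), in which Ccl6 had an unadjusted p of 0.0118. Ccl5, Ccl7, Ccl8, Ccl9, Ccr2 and Ccr6 were called in neither genotype. The counts describe the genes that passed the filter: Cxcl12 and Cxcr5 were above the floor in PBS-treated mice only, and Ccl5, Ccl8 and Ccr6 in IL-4c-treated mice only. Centring each mouse on its median gene moved the median of all tested genes from -0.18 to 0.12 in Rα+/+ and from -0.23 to 0.03 in RαTd/Td mice. It left 7 of the 20 called lower in RαTd/Td mice and 4 called higher, with Ccl5, Ccl8 and Ccl9 added to Ccl6. In Rα+/+ mice it gave 10 lower and 2 higher, Cxcr4 and Ccr6, the latter above the floor only in mouse 5. The share of all tested genes called after centring was not counted, and the shares above do not apply to it. Centring also shifts values that stand at the floor. For Ccl5, at the floor in both PBS-treated RαTd/Td mice, no rise can be stated. Its geometric mean after IL-4c (45.5) lay below their limit (56.2). Groups did not overlap for 15 of the 20 genes in Rα+/+ mice and for 13 of the 20 in RαTd/Td mice, where 63.6% and 62.5% of tested genes did not overlap.

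**Figure D3:**
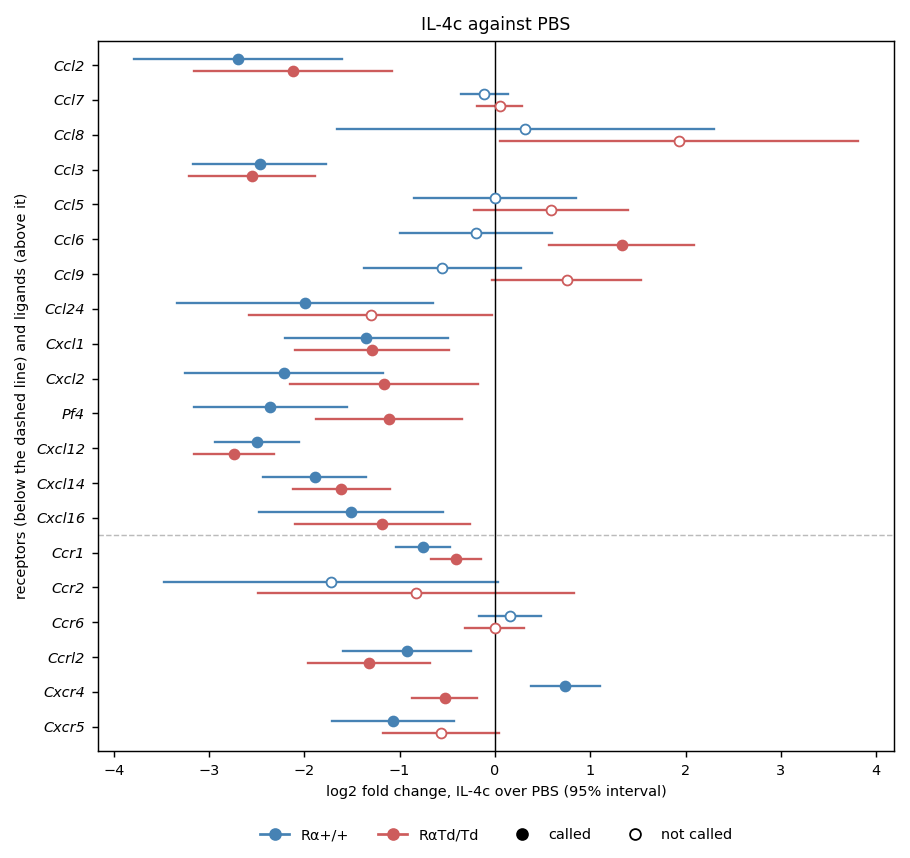
Log2 fold change of each detected chemokine gene, IL-4c over PBS, in Rα+/+ (blue) and RαTd/Td (red) mice, with 95% intervals from limma. Filled points passed an adjusted p of 0.05 and open points did not, and values for genes at the floor in a whole group (Ccl3, Cxcl12, Ccrl2 and Cxcr5 among them) depend on the floor. Most ligands lie left of 0 in both genotypes, Ccl6 lies right of 0 in RαTd/Td mice, and Cxcr4 lies on opposite sides.

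Between the genotypes after PBS, 1 of the 20 genes was called, Cxcr4, higher in RαTd/Td mice, where 9.66% of all tested genes were called (8.09% higher and 1.57% lower). Groups did not overlap for 10 of the 20, where 49.0% of tested genes did not. Of the 14 ligands 0 were called by limma, and Pf4 was the only 1 with an unadjusted p at or under 0.05. After IL-4c 0 of the 20 were called by limma, where 2.7% of tested genes were called. At an unadjusted p of 0.05 or less there were 6: Ccl6, Ccl9, Ccl24, Cxcl16, Ccr1 and Cxcr4, all with higher values in RαTd/Td mice. Unadjusted, 21.8% of all tested genes reached that p, and 18.9% did so with higher values. The methods' t-test gave 4 of the 20 at the study's unadjusted threshold and 0 after Benjamini-Hochberg adjustment. Groups did not overlap for 5 of the 20 genes after IL-4c (Ccl6, Ccl9, Cxcl16, Ccr1 and Cxcr4), all higher in RαTd/Td mice, where 16.4% of tested genes had non-overlapping groups with higher values. The log2 difference was above 0 for 16 of the 20 genes with a median of 0.41, while 70.3% of all tested genes were above 0 with a median of 0.12. Of the 20, 7 were at the floor in a whole group after IL-4c, and with these set to their limits the median of the 20 was 0.31, and that of all tested genes, treated likewise, was 0.10. For Ccl3, Ccl5, Ccl7 and Ccrl2, at the floor in every IL-4c-treated Rα+/+ mouse, the difference could not be below 0. Centring each mouse on its median gene moved the median of all tested genes to -0.07, with 43.1% of all tested genes above 0. Without mouse 12 the median of the 20 was 0.29. Averaged over treatments 2 of the 20 were called, Cxcr4 and Cxcl16, both higher in RαTd/Td mice, where 13.0% of tested genes were called. In the difference between the responses 1 of the 20 was called, Cxcr4, where 2.02% of tested genes were called.

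**Figure D4:**
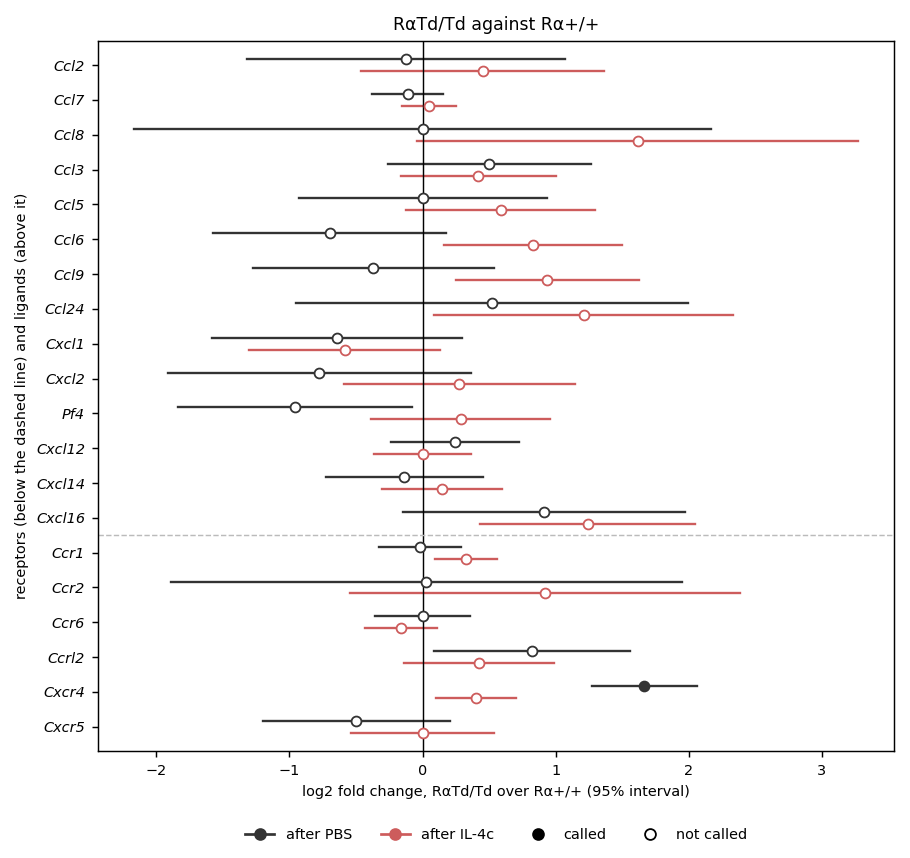
Log2 fold change of each detected chemokine gene, RαTd/Td over Rα+/+, after PBS (dark) and after IL-4c (red), with 95% intervals from limma. Filled points passed an adjusted p of 0.05 and open points did not. The called point is Cxcr4 (1.67) after PBS, and after IL-4c 16 of the 20 points lie above 0 with none called, of which Ccl3, Ccl5, Ccl7 and Ccrl2 could not lie below it because every IL-4c-treated Rα+/+ mouse was at the floor.

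Mouse 12 stood apart from the other IL-4c-treated RαTd/Td mice in many of these genes. Its median tested gene was at 188 normalized counts, against 153, 162 and 162 in mice 9, 10 and 11. Its depth, 447267 counts, was the lowest of the group. The part of this difference in the chemokine values was not tested. It was the highest of the 4 mice for 12 of the 17 chemokine genes above the floor in that group (70.6%) and the lowest for 0, while over all 418 tested genes above the floor there it was the highest for 42.3%. It exceeded the next mouse by over 1.5 times for 7 of the 17 (41.2%), against 8.85% of all 418. The 7 were Ccl24 (3.54 times the next mouse), Ccr2 (3.33), Ccl8 (3.14), Ccl2 (2.88), Ccl5 (2.18), Ccl6 (1.89) and Ccl9 (1.86). Cxcl12 and Cxcr5 were at the floor in this mouse, and Ccr1 and Cxcl2 lay within the range of the other 3. Of the small peritoneal macrophage or monocyte markers, Irf4 was at 157 normalized counts in mouse 12 and at 147, 185 and 152 in mice 9, 10 and 11. Ly6c1 was at the floor in all 4 mice of the group, and Itgax in every mouse. The summed level of the 7 large peritoneal macrophage markers was 21499, the lowest of all mice, and Adgre1 and Itgam (7904 and 8170) made up most of it. Within its group mouse 12 was the lowest for Adgre1, Itgam, Gata6, Timd4 and Selp. It was not the lowest for Csf1r (2145 against 1635 to 2357) or Mertk (442 against 331 to 442). The part of these markers in the chemokine values of mouse 12 was not tested.

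**Figure D5:**
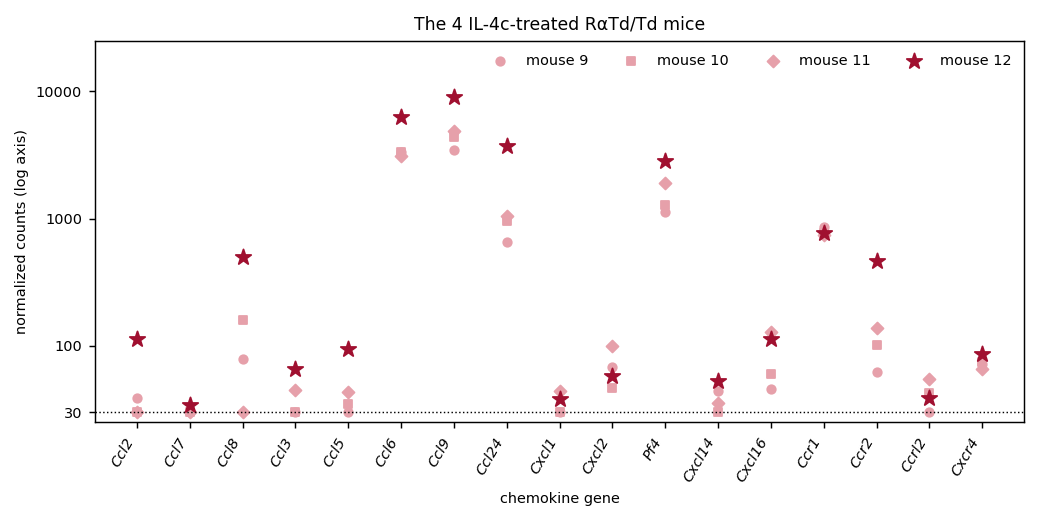
Normalized counts of the 17 chemokine genes above the floor in IL-4c-treated RαTd/Td mice, on a log axis, with mouse 12 as stars and mice 9, 10 and 11 as paler symbols. The dotted line is the floor of 30. Mouse 12 is the highest for 12 of the 17 genes, with Ccl24 at 3689 against 657 to 1042 in the other 3 mice.

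Among other chemoattractant receptors, which guide cells to bacterial peptides, complement fragments and lipids, 9 of 10 in the table were tested. In Rα+/+ mice 6 of the 9 fell with IL-4c and 0 rose, where 32.4% of all tested genes were called lower, and in RαTd/Td mice 4 fell and 0 rose, where 36.6% were called lower. The formyl peptide receptor Fpr1 was at 173 ± 3.03 and 103 ± 15.5 normalized counts in PBS-treated Rα+/+ and RαTd/Td mice (SD, n = 2 each) and was not above the floor in any IL-4c-treated Rα+/+ mouse (adjusted p = 3.04e-07 from limma). It was lower in RαTd/Td mice after PBS (log2 fold change -0.75, adjusted p = 0.0101). S1pr1, which guides lymphocyte exit from tissues, fell in both genotypes (log2 fold changes -2.09 and -1.90), and the C5a receptor C5ar1 fell in Rα+/+ mice (-2.15). In RαTd/Td mice C5ar1 was not called. It was at 953 and 961 normalized counts after PBS and at 375, 389, 512 and 1003 after IL-4c, the last in mouse 12.

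Of 14 genes of chemokine receptor signalling considered, 13 were tested, and 1 rose and 5 fell with IL-4c in Rα+/+ mice, against 1 and 5 in RαTd/Td mice, shares near those of all tested genes called lower (32.4% and 36.6%). Rgs1, which dampens signalling from chemokine receptors, was at 245 ± 63.1 and 351 ± 10.5 normalized counts in PBS-treated Rα+/+ and RαTd/Td mice (SD, n = 2 each) and at 78.5 ± 12.2 (n = 3) and 153 ± 22.6 (n = 4) after IL-4c. It fell with IL-4c in both genotypes (log2 fold changes -1.62 and -1.20) and was higher in RαTd/Td than in Rα+/+ mice after IL-4c (log2 fold change 0.95, SE 0.17, adjusted p = 0.0176 from limma). Stat3 was higher in RαTd/Td mice after PBS (0.42). Of 9 chemokine-processing proteases 3 were tested: Mmp9 and Furin fell in Rα+/+ mice, and Ctsl rose in RαTd/Td mice (log2 fold change 1.59, adjusted p = 0.00206). Of 12 leukocyte adhesion genes 8 were tested: the integrin subunit Itga4 fell in both genotypes (-1.39 and -1.18), as did Selp (-1.01 and -0.99), and Itgb7 rose in Rα+/+ mice (1.42) and was higher in RαTd/Td mice after PBS (1.23).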

How the data were processed

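The values come from sorted peritoneal macrophages of 11 mice, read on a Nanostring myeloid panel (Innate Immunity, version 2) and normalized by the authors to 4 housekeeping genes. They deposited the gene values as a linear signal, in normalized counts, with low values set to 30, and the 14 control probes as plain counts. Chemokine genes were taken by symbol. Of these 1 is not reported here, nor are some genes of the other lists, and every count of chemokine genes leaves it out. They, the related gene lists and the marker lists were chosen with earlier results of these data known.

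Of 754 genes, the 445 with a mean above 30, which are those above the floor in 1 mouse or more, were tested. After 1 was added, log2 values of all 11 mice entered a single model with a term for each group (limma 3.58.1, R 4.3.3). The Benjamini-Hochberg method was applied to each of 6 comparisons on its own, with calls at an adjusted p of up to 0.05. Fold changes are on this log2 scale. Near the floor they can understate or overstate a change, since 30 stands for any value below a mouse's limit (up to 56.3). Ccl3 in Rα+/+ mice, for example, fell 5.53-fold in the fit and at least 4.84-fold against the limit. Nothing in the labels says that mice of a group were treated on separate days, so p-values measure the spread between these mice. Every detected chemokine gene is named, and of each related list called genes with the largest changes. The fit was tested on simulated data. The number of mice, 2 in each PBS-treated group, and the floor limit the precision. Alternatives were other filters, pseudocounts, scalings, floors and tests, and each mouse left out.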

Additional observations from a re-analysis of the deposited data

Results flagged for a closer look

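In IL-4c-treated RαTd/Td mice, the only group of 4, the gap between mouse 12 and the nearest mouse took up a large share of the group's range for 4 of the 17 chemokine genes tested: 0.873 for Ccl24, 0.89 for Ccl2, 0.927 for Ccl6 and 1.0 for Ccl7. All 4 shares are above the critical value of Dixon's test, which chance passes in about 1 in 20 such groups. For Ccl7 the other 3 mice were at the floor and mouse 12 was at 34.4 normalized counts, its own lowest value above the floor, so that share rests on the floor. The share for Ccl2 also depends on the floor, where mice 10 and 11 stood. In all 4 genes mouse 12 was the highest.

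The difference between the genotypes in the log2 fold change of Cxcr4 with IL-4c, -1.27, was the only such difference among the chemokine genes that passed the test of the difference itself (adjusted p = 0.0193 from limma). With 1 common floor it was -0.60 and not called.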

How the results depend on the processing

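Of 29 called changes of chemokine genes, 15 stayed called whichever of the 11 mice was left out. The sign reversed for 0 of the 29 under those of 23 alternatives that gave them a value. Of the 29, 10 had a value with a mean above 100 and 6 with values above 30 in every mouse. The t-tests and fits to only the groups compared gave values for the simple comparisons only. Many alternatives leave the log2 fold change itself unchanged, so its sign could not reverse under them. These are the other filters and tests, the unadjusted p, the fits to only the groups compared, and leaving out a mouse of a group not compared. For IL-4c in Rα+/+ mice the 13 called genes became 5 with a mean above 100 (fewer genes tested), 3 with values above 30 in every mouse, and 7 with the methods' t-test after adjustment. For IL-4c in RαTd/Td mice the 12 became 5 and 3 under these filters and 7 after quantile normalization. For the genotypes after PBS the 1 became 0 under either filter and with the adjusted t-test, 2 with a single floor and with the unadjusted t-test, and 3 with an unadjusted p. After IL-4c the 0 became 6 with an unadjusted p and 4 with the unadjusted t-test, an alternative chosen after seeing the data. For the difference between the responses the 1 became 0 under either filter and with a single floor, and 4 with an unadjusted p. Averaged over treatments the 2 became 0 under either filter, 1 without a filter, after centring, after quantile normalization and with a single floor, and 4 with an unadjusted p. These counts are given without the share of all tested genes called under the same alternative.

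With 1 mouse left out the counts ranged from 9 to 14 for IL-4c in Rα+/+ mice and from 7 to 13 in RαTd/Td mice (7 without mouse 3 or mouse 4). They ranged from 1 to 3 for the genotypes after PBS (3 without mouse 1) and from 1 to 4 averaged (4 without mouse 1), from 0 to 1 after IL-4c (Cxcl16 without mouse 9), and from 0 to 2 for the difference (2 without mouse 1 and 0 without mouse 4, 6 or 7). A PBS-treated group with 1 mouse is assumed to vary like the other groups. Single genes lost their call 9 times without the filter, 7 times after centring, 7 after quantile normalization, 6 with a single floor and 11 with the adjusted t-test, and except where stated the cause was not tested. The planned count models were not run because the gene values are normalized and floored. No paired analysis was possible because no number is shared between groups.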
